A study of Mus musculus with 14 samples.

Results

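Sterol and fatty acid synthesis genes were followed as a group of 31 named genes in splenic CD4 T cells of lupus-prone and control mice. The group was taken by gene symbol from the table of counts, in which all 31 members were found among 26683 symbols. By role it held 7 enzymes of the mevalonate pathway, 11 enzymes that make squalene and turn it into cholesterol, and 5 genes of the SREBP control system. A further 6 members act in fatty acid synthesis, desaturation and elongation, and 2 are sterol exporters. After a filter on low counts 30 members were tested among 13427 genes, and the remaining member, Scd1, was too low to test.

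Animal cells make cholesterol from acetyl-CoA through mevalonate, farnesyl diphosphate, squalene and lanosterol. The transcription factors SREBP1 and SREBP2 activate the genes of sterol and fatty acid synthesis. The SREBP escort protein SCAP carries them from the endoplasmic reticulum for cleavage, and INSIG proteins hold SCAP back when sterols are plentiful. Oxysterols bind the LXR receptors, which turn on sterol exporters. In T cells this programme is known for its induction when naive cells are activated and start to grow and divide.

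The mice were female and 8 months old. The lupus-prone strain was B6.NZM-Sle1NZM2410/AegSle2NZM2410/AegSle3NZM2410/Aeg/LmoJ, called TC for triple congenic, which carries 3 lupus susceptibility intervals from NZM2410 on the C57BL/6J background. C57BL/6J (B6) mice of the same age were the controls. From each spleen CD4+CD44+CD162lo/-PD-1+ cells were sorted as follicular helper cells (Tfh), which help B cells in germinal centres, and CD4+CD44- cells as naive cells (Tn). The groups were 3 TC Tfh, 3 TC Tn, 4 B6 Tfh and 4 B6 Tn libraries. By their numbers they were taken as 1 library of each cell type from each of 3 TC and 4 B6 mice. The labels name no agent, and by the titles the groups differ in strain and cell type only. The Tfh gate as labelled has no marker against regulatory T cells, and the TC intervals are present in every cell of the mouse.

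Library totals ran from 15162309 to 20191558 counts. Levels are given as CPM, counts per 1e6 counts of the library after TMM scaling, which is also the scale of the fitted fold changes. Libraries carry the mouse numbers of the labels, 1, 2 and 4 in TC and 1 to 4 in B6. Summed CPM of 7 Tfh markers, of which Pdcd1 encodes the PD-1 of the sort, ran from 2292 to 2795 in TC Tfh, 113 to 128 in TC Tn, 2682 to 3119.98 in B6 Tfh and 97.8 to 127 in B6 Tn. Summed CPM of 6 naive cell markers, of which Selplg encodes the CD162 of the sort, ran from 309.7 to 343 in TC Tfh, 2901 to 3094 in TC Tn, 339 to 452 in B6 Tfh and 3841 to 4344 in B6 Tn. Marker sums of other cells also moved with cell type. The sum of 4 regulatory T cell markers was 2056 to 2188 CPM in TC Tfh, 57.97 to 72.6 in TC Tn, 1734 to 2132 in B6 Tfh and 75.5 to 90.2 in B6 Tn. The sum of 5 cell cycle markers was 79.1 to 94.1 CPM in TC Tfh, 9.57 to 14.1 in TC Tn, 86.7 to 115 in B6 Tfh and 13.1 to 16.1 in B6 Tn. The sum of 8 B cell markers was 71.8 to 99.6 CPM in TC Tfh, 1.21 to 2.23 in TC Tn, 106 to 117 in B6 Tfh and 1.40 to 2.47 in B6 Tn, most of it Cd22, and 5 of the 8 (among them Cd79a and Ms4a1) averaged below 1 CPM in Tfh cells of both strains. Sums of plasma cell, macrophage, dendritic cell and erythroid markers stayed at or below 17.3 CPM in every library. Siglech was at 0 in all of them, and Cd14 and Tnfrsf17 were each at 0 throughout 3 of the 4 groups. The dendritic cell sum still moved with cell type. It was 8.59 to 10.2 CPM in TC Tfh, 0.191 to 0.501 in TC Tn, 8.78 to 15.9 in B6 Tfh and 0.730 to 1.24 in B6 Tn, in Tfh mostly Zbtb46. Plasma cell sums (5.82 to 17.3 CPM in B6 Tfh, 1.74 to 3.47 in B6 Tn) and macrophage sums (8.47 to 15.5 and 2.81 to 3.92) were apart in B6 and overlapped in TC. The part of these other cells in the results below was not tested. In RNA from sorted cells, fewer cells that express a gene and less RNA of it per cell cannot be told apart.

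The promoters of 7 sterol enzymes that fell at least 2.00-fold in Tfh cells of 1 or both strains are shown because SREBP acts through short elements close to the start of such genes, usually beside a CCAAT box that binds the factor NF-Y. Each line holds the 250 bases before the RefSeq transcript start in GRCm38.p6, 5′ to 3′ along the gene. Capitals mark a match to a motif on either strand. The motif TCACNCCAC is a sterol response element. CACGTG is the E-box that SREBP can also bind, and CCAAT is the NF-Y box, which reads ATTGG on the other strand.
Hmgcs1 (chr13:119690101-119690350, plus strand): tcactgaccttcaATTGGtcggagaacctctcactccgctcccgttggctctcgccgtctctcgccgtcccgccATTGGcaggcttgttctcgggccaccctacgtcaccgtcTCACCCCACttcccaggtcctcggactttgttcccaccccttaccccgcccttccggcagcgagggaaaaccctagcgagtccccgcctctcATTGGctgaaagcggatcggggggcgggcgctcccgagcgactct
Mvk (chr5:114444019-114444268, plus strand): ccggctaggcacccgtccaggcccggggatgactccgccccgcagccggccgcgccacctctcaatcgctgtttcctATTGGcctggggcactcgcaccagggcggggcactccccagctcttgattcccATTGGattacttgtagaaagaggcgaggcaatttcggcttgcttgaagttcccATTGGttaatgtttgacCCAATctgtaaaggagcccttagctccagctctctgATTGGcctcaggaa
Mvd (chr8:122443423-122443672, minus strand): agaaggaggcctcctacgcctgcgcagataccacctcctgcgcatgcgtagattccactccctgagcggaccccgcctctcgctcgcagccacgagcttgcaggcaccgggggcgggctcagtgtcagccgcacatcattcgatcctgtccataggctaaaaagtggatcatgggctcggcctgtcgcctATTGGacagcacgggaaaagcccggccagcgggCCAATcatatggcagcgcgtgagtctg
Idi1 (chr13:8885356-8885605, plus strand): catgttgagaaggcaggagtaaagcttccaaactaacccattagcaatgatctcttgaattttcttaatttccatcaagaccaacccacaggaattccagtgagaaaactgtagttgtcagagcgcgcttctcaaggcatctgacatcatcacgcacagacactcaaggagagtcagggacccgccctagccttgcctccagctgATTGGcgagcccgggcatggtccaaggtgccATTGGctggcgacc
Lss (chr10:76531355-76531604, plus strand): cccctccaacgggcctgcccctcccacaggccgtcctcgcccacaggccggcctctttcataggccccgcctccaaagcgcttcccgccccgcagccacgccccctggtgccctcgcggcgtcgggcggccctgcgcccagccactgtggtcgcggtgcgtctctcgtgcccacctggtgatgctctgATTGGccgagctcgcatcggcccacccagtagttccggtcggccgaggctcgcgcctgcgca
Cyp51 (chr5:4104698-4104947, minus strand): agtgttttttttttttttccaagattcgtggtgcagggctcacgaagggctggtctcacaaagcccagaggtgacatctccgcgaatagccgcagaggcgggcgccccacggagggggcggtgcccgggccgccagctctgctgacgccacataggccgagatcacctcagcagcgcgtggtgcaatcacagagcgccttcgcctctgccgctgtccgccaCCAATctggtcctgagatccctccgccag
Hsd17b7 (chr1:169969206-169969455, minus strand): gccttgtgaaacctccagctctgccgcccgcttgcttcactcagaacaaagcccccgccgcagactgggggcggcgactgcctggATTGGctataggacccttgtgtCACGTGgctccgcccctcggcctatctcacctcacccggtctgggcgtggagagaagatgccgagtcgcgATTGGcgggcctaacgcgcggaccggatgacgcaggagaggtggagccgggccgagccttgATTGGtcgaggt

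The element TCACNCCAC was found once in these lines, in Hmgcs1, and CACGTG once, in Hsd17b7. Every one of the 7 lines held at least 1 CCAAT box, and Mvk held 5 of them. No marked motif overlapped another in these lines. RefSeq windows of 300 bases, which add the 50 bases after the start, were matched for 25 of the 31 members (not for Fdps, Fdft1, Sqle, Scd1, Scd2 and Abcg1). CCAAT was present in 20 of these 25 members (80%) and in 41.1% of 27025 genes. Members with the box included Pmvk, Tm7sf2 and Insig2, which rose in Tfh cells of 1 or both strains, and Ebp, which was called in neither. CACGTG was present in 7 of 25 members (28%) and in 8.09% of genes, and TCACNCCAC in 1 of 25 (4%) and in 1.44% of genes. The DR4 element, a direct repeat that LXR receptors bind with their partner, was present in 0 of 25 members and in 0.0148% of genes. A match describes these letters in these windows and does not show that a factor binds there.

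Most of the group was lower in Tfh than in Tn cells, and the mevalonate and sterol enzymes fell furthest. The test was edgeR's quasi-likelihood F test, with p-values adjusted over all genes tested by the Benjamini-Hochberg method, and a call needs an adjusted p below 0.05. A value beside a gene is its log2 fold change ± SE from this fit unless another quantity is named. In TC, 23 members were lower in Tfh, 4 were higher and 3 were not called, where 66.2% of all genes tested were called (32.4% lower and 33.8% higher). In B6, 21 members were lower, 4 were higher and 5 were not called, where 70.5% of all genes were called (33.4% lower and 37.1% higher). The same 20 members were called lower in both strains, a call that 27.8% of all genes shared, and 3 members were called higher in both (30.9% of all genes). No member was called in opposite directions. Tfh and Tn libraries did not overlap for any called member. In TC 24 members, Abca1 among them, had all Tfh libraries below all Tn libraries and 4 had them above, where 71.3% of all genes did not overlap (35.6% lower and 35.7% higher). In B6 this held for 21 members below and 4 above, where 63.9% of all genes did not overlap (30.1% lower and 33.8% higher). A called change of at least 1 on the log2 scale was reached by 12 members in TC, where 26.5% of all genes did so, and by 9 in B6, where 26.8% did so. The median log2 fold change of the 30 members was -0.45 in TC and -0.71 in B6, against -0.0088 and 0.018 over all genes. For the 18 mevalonate and sterol enzymes it was -0.95 in TC and -0.83 in B6.

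**Figure D1:**
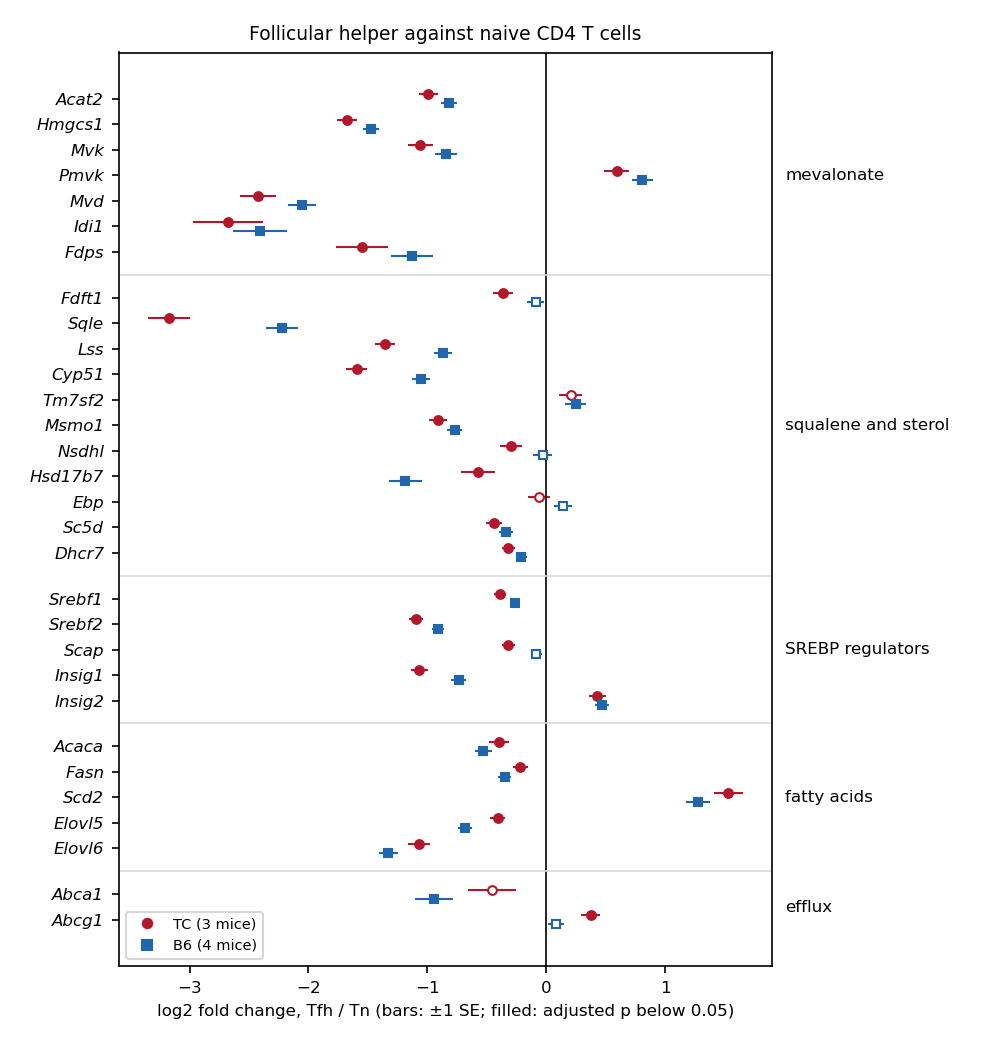
Log2 fold change of Tfh over Tn cells for the 30 tested members, by role, in TC (circles) and B6 (squares). Bars are 1 SE and filled symbols have an adjusted p below 0.05; symbols left of 0 are lower in Tfh, with Sqle lowest in TC at -3.17 and Scd2 highest at 1.53.

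Of the 7 mevalonate pathway transcripts 6 fell in Tfh cells of both strains and 1 rose. Together the 7 transcripts summed to 64.02 ± 2.24 CPM in TC Tfh and 145 ± 11.9 CPM in TC Tn (SD, n = 3 each), and to 73.8 ± 4.14 CPM in B6 Tfh and 147 ± 7.06 CPM in B6 Tn (SD, n = 4 each). The largest falls were those of Idi1 and Mvd.

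Hmgcs1, the synthase that makes HMG-CoA, measured 21.6, 23.2 and 20.4 CPM in TC Tfh, against 62.3, 78.5 and 67.4 CPM in TC Tn. In B6 it measured 25.9, 26.9, 24.1 and 24.2 CPM in B6 Tfh, against 74.7, 67.1, 69.7 and 69.4 CPM in B6 Tn. Every Tfh library lay below every Tn library, with a log2 fold change (± SE) of -1.67 ± 0.083, adjusted p = 7.76e-12 in TC and -1.47 ± 0.069, adjusted p = 2.79e-12 in B6. Mvd, which decarboxylates mevalonate diphosphate to the first isoprene unit, measured 3.995, 4.10 and 3.06 CPM in TC Tfh, against 19.7, 21.7 and 18.3 CPM in TC Tn. The B6 values of Mvd were 5.87, 6.09, 4.07 and 4.99 CPM in B6 Tfh, against 24.3, 19.3, 22.1 and 21.7 CPM in B6 Tn. These values put it 5.37-fold lower in Tfh of TC and 4.15-fold lower in Tfh of B6, without overlap (log2 fold change -2.42 ± 0.15, adjusted p = 1.38e-10 in TC and -2.05 ± 0.12, adjusted p = 3.16e-11 in B6). Idi1, the isomerase that supplies the second isoprene unit, was low in all libraries and lowest in Tfh. It measured 0.571, 0.947 and 0.484 CPM in TC Tfh, against 3.73, 5.59 and 3.51 CPM in TC Tn. In B6 Idi1 measured 0.709, 0.948, 0.627 and 1.04 CPM in B6 Tfh, against 4.54, 3.70, 4.15 and 5.33 CPM in B6 Tn. The Tfh and Tn libraries of Idi1 were apart in both strains, at -2.68 ± 0.29, adjusted p = 3.43e-07 in TC and -2.41 ± 0.23, adjusted p = 4.25e-08 in B6. Mvk, mevalonate kinase, measured 7.31, 8.08 and 7.31 CPM in TC Tfh, against 16.1, 16.3 and 14.8 CPM in TC Tn. The B6 values of Mvk were 8.81, 8.64, 8.04 and 8.01 CPM in B6 Tfh, against 16.6, 14.6, 12.8 and 16.1 CPM in B6 Tn. The Tfh libraries of Mvk all lay below its Tn libraries, at -1.06 ± 0.11, adjusted p = 1.28e-07 in TC and -0.84 ± 0.090, adjusted p = 1.74e-07 in B6. Fdps, which joins isoprene units to farnesyl diphosphate, measured 1.26, 2.27 and 1.29 CPM in TC Tfh, against 3.95, 4.96 and 5.07 CPM in TC Tn. In B6 Fdps measured 2.38, 1.85, 1.62 and 1.72 CPM in B6 Tfh, against 3.87, 4.51, 3.74 and 4.49 CPM in B6 Tn. Its Tfh libraries were again all below the Tn libraries, at -1.55 ± 0.22, adjusted p = 6.46e-06 in TC and -1.13 ± 0.18, adjusted p = 2.10e-05 in B6.

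Acat2, the cytosolic thiolase that starts the pathway, averaged 8.78 ± 0.337 CPM in TC Tfh and 17.5 ± 0.246 in TC Tn (SD, n = 3 each), and fell in both strains (-0.99 ± 0.083 in TC and -0.82 ± 0.068 in B6, adjusted p = 1.01e-08 and 5.99e-09 by edgeR). Pmvk, phosphomevalonate kinase, went the other way. It averaged 19.9 ± 1.15 CPM in TC Tfh and 13.3 ± 0.309 in TC Tn (SD, n = 3 each), and 21.4 ± 1.49 CPM in B6 Tfh against 12.2 ± 1.71 in B6 Tn (SD, n = 4 each). All Tfh libraries of Pmvk lay above all Tn libraries (0.59 ± 0.10, adjusted p = 8.04e-05 in TC and 0.81 ± 0.089, adjusted p = 2.61e-07 in B6). Pmvk thus stood between Mvk and Mvd in the order of the pathway and differed from both in direction.

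**Figure D2:**
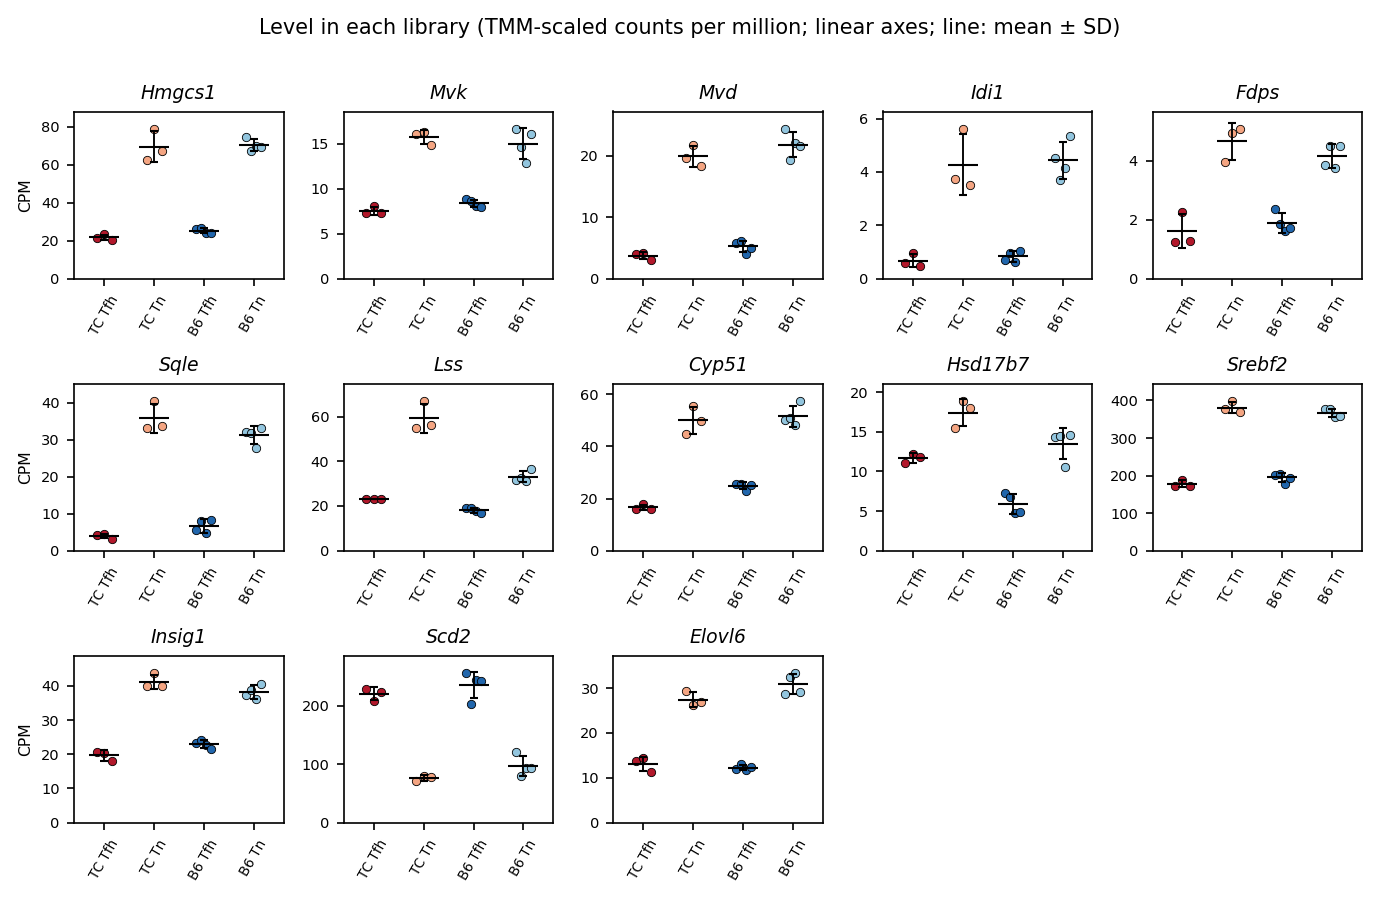
Level of 13 members in each of the 14 libraries, in TMM-scaled CPM on linear axes that start at 0, with mean and SD per group. Tfh libraries lie below the Tn libraries of the same strain for 12 of the 13 genes, and Scd2 is the exception, at 208 to 229 CPM in TC Tfh and 70.8 to 79.4 CPM in TC Tn.

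Among the 11 squalene and sterol enzymes, 9 fell in Tfh cells of TC and 2 were not called, and in B6 7 fell, 1 rose and 3 were not called. Their sum was 230.1 ± 4.39 CPM in TC Tfh and 383 ± 25.8 in TC Tn (SD, n = 3 each), and 259.99 ± 9.69 CPM in B6 Tfh against 363 ± 13.05 in B6 Tn (SD, n = 4 each). Sqle, squalene epoxidase, which adds the first oxygen and is a rate-limiting step, measured 4.17, 4.48 and 3.28 CPM in TC Tfh, against 33.2, 40.3 and 33.6 CPM in TC Tn. In B6 Sqle measured 5.67, 8.14, 4.65 and 8.27 CPM in B6 Tfh, against 32.1, 31.8, 27.7 and 33.2 CPM in B6 Tn. This was the largest fall of the 30 members in TC, 9.003-fold, and the second largest in B6, 4.67-fold (log2 fold change -3.17 ± 0.18, adjusted p = 9.46e-11 in TC and -2.22 ± 0.14, adjusted p = 2.63e-10 in B6). Lss, lanosterol synthase, measured 23.00, 23.04 and 23.2 CPM in TC Tfh, against 54.7, 66.8 and 56.2 CPM in TC Tn. The B6 values of Lss were 18.9, 19.1, 17.6 and 16.9 CPM in B6 Tfh, against 31.8, 32.7, 31.1 and 36.7 CPM in B6 Tn. Lss fell without overlap in both strains, at -1.36 ± 0.082, adjusted p = 1.27e-10 in TC and -0.87 ± 0.074, adjusted p = 9.88e-09 in B6. Cyp51, the lanosterol demethylase, measured 16.2, 17.8 and 15.8 CPM in TC Tfh, against 44.9, 55.4 and 49.7 CPM in TC Tn. The B6 values of Cyp51 were 25.7, 25.7, 22.8 and 25.2 CPM in B6 Tfh, against 49.95, 50.9, 48.1 and 57.3 CPM in B6 Tn. Its Tfh libraries were all below its Tn libraries, at -1.59 ± 0.089, adjusted p = 4.24e-11 in TC and -1.05 ± 0.073, adjusted p = 4.92e-10 in B6. Hsd17b7, a ketosteroid reductase of the demethylation steps, measured 11.1, 12.2 and 11.8 CPM in TC Tfh, against 15.5, 18.8 and 17.9 CPM in TC Tn. In B6 Hsd17b7 measured 7.24, 6.74, 4.81 and 4.89 CPM in B6 Tfh, against 14.3, 14.5, 10.5 and 14.6 CPM in B6 Tn. It fell in both strains, at -0.57 ± 0.14, adjusted p = 0.00179 in TC and -1.19 ± 0.14, adjusted p = 4.85e-07 in B6.

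The other 7 sterol enzymes had log2 fold changes under 1 in size. Msmo1, the sterol methyl oxidase, fell to 17.7 ± 1.52 CPM in TC Tfh, against 33.4 ± 2.42 in TC Tn (SD, n = 3 each), with log2 fold changes of -0.91 ± 0.076 in TC and -0.77 ± 0.063 in B6. Sc5d, a sterol desaturase, and Dhcr7, a reductase of the last steps, fell by small amounts in both strains (-0.44 ± 0.068 and -0.32 ± 0.055 in TC, -0.34 ± 0.057 and -0.21 ± 0.047 in B6). Fdft1, squalene synthase, and Nsdhl, a sterol dehydrogenase, fell in TC (-0.36 ± 0.084, adjusted p = 0.00110 and -0.30 ± 0.093, adjusted p = 0.00939) and were not called in B6 (-0.090 ± 0.071, adjusted p = 0.267 and -0.031 ± 0.081, adjusted p = 0.746). Tm7sf2, a sterol reductase, rose in B6 (0.25 ± 0.089, adjusted p = 0.0193) and had a log2 fold change of 0.21 ± 0.10, adjusted p = 0.0739 in TC. Ebp, the sterol isomerase, was not called in either strain (-0.062 ± 0.10, adjusted p = 0.586 in TC and 0.14 ± 0.078, adjusted p = 0.120 in B6), and with the mouse as a block it was called higher in B6 (adjusted p = 0.0455). The difference between strains was not called for Fdft1, Nsdhl, Tm7sf2 or Ebp (adjusted p = 0.259, 0.337, 0.946 and 0.511 for the interaction by edgeR). Exons of Fdft1 overlap Ctsb, those of Cyp51 overlap Akap9 and those of Srebf1 overlap Rai1, each on the other strand. Those of Tm7sf2 overlap Vps51 on the same strand. Vps51 averaged 916 raw counts in TC Tfh, 1039 in TC Tn, 841.5 in B6 Tfh and 800.5 in B6 Tn, without scaling for library totals. The counts of all these members are uncertain, since the treatment of shared reads is not known. Ctsb itself averaged 8476 raw counts in TC Tfh, 2613 in TC Tn, 14923 in B6 Tfh and 3673 in B6 Tn. Reads of Fdps and Acat2 can also match similar gene copies. The part of these overlaps and copies in the values was not tested.

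Of the 5 control genes, Srebf2 and Insig1 fell most and Insig2 rose in Tfh cells of both strains. Srebf2, which encodes the main activator of sterol genes, measured 173, 189 and 173 CPM in TC Tfh, against 376, 397 and 368 CPM in TC Tn. In B6 Srebf2 measured 203, 205, 179 and 193 CPM in B6 Tfh, against 377, 376, 356 and 359.9 CPM in B6 Tn. Srebf2 was 2.13-fold lower in Tfh of TC and 1.88-fold lower in Tfh of B6, without overlap (-1.09 ± 0.060, adjusted p = 3.32e-11 in TC and -0.91 ± 0.052, adjusted p = 3.13e-11 in B6). Insig1, which is itself a target of SREBP, measured 20.7, 20.3 and 17.95 CPM in TC Tfh, against 40.1, 43.7 and 39.9 CPM in TC Tn. The B6 values of Insig1 were 23.2, 24.3, 22.8 and 21.5 CPM in B6 Tfh, against 37.5, 38.7, 36.1 and 40.6 CPM in B6 Tn. It fell without overlap as well, at -1.07 ± 0.074, adjusted p = 7.43e-10 in TC and -0.74 ± 0.062, adjusted p = 8.04e-09 in B6. Insig2, whose product also retains SCAP, averaged 29.2 ± 2.37 CPM in TC Tfh and 21.7 ± 1.26 in TC Tn (SD, n = 3 each), and 33.9 ± 0.980 CPM in B6 Tfh against 24.5 ± 0.416 in B6 Tn (SD, n = 4 each). It rose in both strains (0.43 ± 0.070, adjusted p = 3.55e-05 in TC and 0.47 ± 0.059, adjusted p = 1.41e-06 in B6). Srebf1, which encodes the activator of fatty acid genes, fell by less (-0.39 ± 0.049, adjusted p = 2.03e-06 in TC and -0.26 ± 0.043, adjusted p = 3.10e-05 in B6). Scap fell in TC (-0.32 ± 0.053, adjusted p = 4.29e-05) and was not called in B6 (-0.083 ± 0.046, adjusted p = 0.118).

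Fatty acid genes were split in direction within the same role. Scd2, a desaturase that makes oleate, rose in Tfh cells, while Elovl6, Elovl5, Acaca and Fasn fell in both strains. Scd2 measured 229, 208 and 224 CPM in TC Tfh, against 70.8, 79.4 and 78.7 CPM in TC Tn. In B6 Scd2 measured 255, 203, 243 and 242 CPM in B6 Tfh, against 121, 80.5, 93.96 and 93.3 CPM in B6 Tn. Every Tfh library of Scd2 exceeded every Tn library, 2.89-fold on the fitted scale in TC and 2.43-fold in B6 (1.53 ± 0.12, adjusted p = 2.73e-08 and 1.28 ± 0.10, adjusted p = 2.50e-08). Elovl6, which elongates palmitate to stearate, measured 13.8, 14.3 and 11.2 CPM in TC Tfh, against 29.3, 26.2 and 26.8 CPM in TC Tn. The B6 values of Elovl6 were 11.9, 12.98, 11.8 and 12.4 CPM in B6 Tfh, against 28.8, 32.4, 33.3 and 29.2 CPM in B6 Tn. It fell without overlap, at -1.07 ± 0.094, adjusted p = 1.75e-08 in TC and -1.33 ± 0.079, adjusted p = 6.91e-11 in B6. Elovl5, an elongase of polyunsaturated fatty acids, had a log2 fold change of -0.41 ± 0.066, adjusted p = 2.99e-05 in TC and -0.68 ± 0.057, adjusted p = 6.15e-09 in B6. Acaca, the acetyl-CoA carboxylase that commits carbon to fatty acids, had a log2 fold change of -0.40 ± 0.083, adjusted p = 4.15e-04 in TC and -0.53 ± 0.070, adjusted p = 2.85e-06 in B6. Fasn, fatty acid synthase, had a log2 fold change of -0.22 ± 0.061, adjusted p = 0.00463 in TC and -0.35 ± 0.053, adjusted p = 1.32e-05 in B6.

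Scd1, the other desaturase of the group, was almost absent. It had 3, 3 and 2 counts in TC Tfh, 0 in each of the 3 TC Tn libraries, 12, 10, 2 and 3 counts in B6 Tfh, and 0, 0, 0 and 1 in B6 Tn. Over each group this was 0.161 CPM in TC Tfh (exact Poisson 95% interval 0.0696 to 0.318), none in TC Tn (3 counts over the group would be 0.0564 CPM), 0.360 in B6 Tfh (0.237 to 0.523) and 0.0133 in B6 Tn (0.000336 to 0.0739). These Scd1 values are per 1e6 total counts, without TMM scaling, and the intervals cover counting error only. Scd1 failed the filter on low counts and was not tested. Reads shared between the similar Scd1 and Scd2 genes could have been assigned to either.

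The exporters Abca1 and Abcg1, targets of LXR, did not move together. Abca1, which loads cholesterol onto apolipoproteins, averaged 20.03 ± 1.76 CPM in TC Tfh and 27.5 ± 0.374 in TC Tn (SD, n = 3 each), and 25.9 ± 6.74 CPM in B6 Tfh against 49.9 ± 7.996 in B6 Tn (SD, n = 4 each). It fell in B6 (-0.94 ± 0.16, adjusted p = 1.45e-04). In TC its difference was -0.45 ± 0.20, adjusted p = 0.0626, and with the mouse as a block it was called (-0.46 ± 0.10, adjusted p = 0.00113). Abcg1, which exports sterols to lipoproteins, rose in TC (0.37 ± 0.079, adjusted p = 4.75e-04) and was not called in B6 (0.081 ± 0.067, adjusted p = 0.294).

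TMM scaling sets the zero line of these differences. Scaling by library totals alone raised the Tfh over Tn log2 fold changes of all genes by a median of 0.11 in TC and 0.13 in B6. Under it Fasn and Nsdhl lost their calls in TC (-0.11, adjusted p = 0.137, and -0.19, adjusted p = 0.0955), and Dhcr7 lost its call in B6 (-0.077, adjusted p = 0.174). Tm7sf2 was then called higher in TC (0.32, adjusted p = 0.00999), and Ebp and Abcg1 were called higher in B6 (0.27, adjusted p = 0.00347, and 0.22, adjusted p = 0.0103). Values that changed sign under it were those of Ebp in TC (0.047) and of Fdft1 (0.044), Nsdhl (0.10) and Scap (0.051) in B6, none of them called. Single libraries also decided some of these calls. Nsdhl lost its call in TC without TC Tfh 1 (adjusted p = 0.0709), Fasn without TC Tfh 2 (0.0748), and Tm7sf2 in B6 without B6 Tfh 4, B6 Tn 1 or B6 Tn 3 (up to 0.0638). The other calls of members between Tfh and Tn cells kept their direction and their side of the threshold in both respects.

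Per length of exon, the members ranged widely. Levels per kilobase were highest for Scd2 in Tfh cells (40.3 CPM per kilobase in TC Tfh and 43.2 in B6 Tfh) and for Srebf2 and Elovl5 in Tn cells (52.97 and 51.5 in TC Tn, 51.1 and 67.6 in B6 Tn). Idi1 and Fdps were the lowest of the tested members in all 4 groups, at 0.190 and 0.382 CPM per kilobase in TC Tfh and 1.22 and 1.11 in TC Tn. Scd2 had rank 7 of the members per kilobase in TC Tn and rank 5 in B6 Tn. Exon lengths were those of all annotated exons together, and the transcripts in use were not known.

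Neighbouring genes of the pathway, taken from lists chosen with earlier results of these data known, moved in both directions between Tfh and Tn cells, and their counts stand against 66.2% of all genes called in TC and 70.5% in B6. Of 9 tested genes for SREBP processing and sterol-regulated degradation, 6 rose and 0 fell in TC Tfh over TC Tn, and 8 rose and 0 fell in B6. Of 11 genes of the isoprenoid branch, 2 rose and 3 fell in TC, and 2 rose and 5 fell in B6. Fntb, the beta subunit of farnesyltransferase, fell to 10.7 ± 0.791 CPM in TC Tfh, against 35.5 ± 1.61 in TC Tn (SD, n = 3 each), with -1.73 ± 0.10, adjusted p = 4.88e-11 in TC and -2.14 ± 0.078, adjusted p = 8.30e-14 in B6. Nus1, a subunit of the dolichol-making transferase, fell too (-0.36 ± 0.065 in TC and -0.33 ± 0.055 in B6), and Rce1, a protease of prenylated proteins, rose (0.28 ± 0.082 in TC and 0.37 ± 0.070 in B6). Dolk, dolichol kinase, rose in B6 (0.26 ± 0.11, adjusted p = 0.0473) and had a log2 fold change of 0.062 ± 0.15, adjusted p = 0.729 in TC.

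Of 5 tested genes that supply acetyl-CoA and NADPH, 1 rose and 1 fell in each strain. Acss2, which makes cytosolic acetyl-CoA from acetate and is a known SREBP target, averaged 17.5 ± 2.14 CPM in TC Tfh and 89.4 ± 1.21 in TC Tn (SD, n = 3 each), and 16.8 ± 3.32 CPM in B6 Tfh against 109 ± 4.61 in B6 Tn (SD, n = 4 each). It fell by 5.12-fold in TC and 6.47-fold in B6 (-2.36 ± 0.12, adjusted p = 8.20e-11 and -2.69 ± 0.10, adjusted p = 1.60e-12). Slc25a1, the mitochondrial citrate carrier, rose (0.53 ± 0.10, adjusted p = 1.45e-04 in TC and 0.74 ± 0.081, adjusted p = 2.45e-07 in B6). Of 7 tested elongases, desaturases and elongation enzymes outside the members, 1 rose and 3 fell in TC, and 4 rose and 3 fell in B6. Hacd3, a dehydratase of the elongation cycle, rose (1.45 ± 0.063, adjusted p = 1.37e-12 in TC and 1.31 ± 0.053, adjusted p = 3.62e-13 in B6). Elovl7 fell to 0.174 ± 0.0143 CPM in TC Tfh, against 4.36 ± 0.837 in TC Tn (SD, n = 3 each), and to 0.165 ± 0.0607 CPM in B6 Tfh, against 6.32 ± 0.816 in B6 Tn (SD, n = 4 each). Its Tfh values were near the detection limit. Without TMM scaling, 3 counts were 0.171 to 0.198 CPM in TC Tfh libraries and 0.156 to 0.162 in B6 Tfh libraries. Elovl1 rose in B6 (0.26 ± 0.048, adjusted p = 1.05e-04) and had a log2 fold change of 0.019 ± 0.057, adjusted p = 0.782 in TC, and Hacd2 fell in both (-0.38 ± 0.11 in TC and -0.40 ± 0.090 in B6).

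Of 10 tested genes for storage, uptake and movement of sterols, 4 rose and 5 fell in TC, and 4 rose and 4 fell in B6. Both cholesterol-esterifying enzymes rose. Soat1 had a log2 fold change of 0.72 ± 0.061, adjusted p = 1.08e-08 in TC and 0.62 ± 0.052, adjusted p = 6.44e-09 in B6. Soat2 was near the detection limit in Tn, at 2.02 ± 0.767 CPM in TC Tfh and 0.0980 ± 0.0375 in TC Tn (SD, n = 3 each), and 4.30 ± 0.305 CPM in B6 Tfh against 0.199 ± 0.0806 in B6 Tn (SD, n = 4 each). Npc2, a lysosomal cholesterol carrier, fell (-2.09 ± 0.086, adjusted p = 6.39e-13 in TC and -2.27 ± 0.074, adjusted p = 1.80e-14 in B6), as did Lipa, the lysosomal acid lipase (-0.71 ± 0.061, adjusted p = 1.40e-08 in TC and -0.82 ± 0.052, adjusted p = 1.66e-10 in B6). Of 6 LXR receptors, partners and targets, 1 rose and 3 fell in each strain. Rxra, a partner of LXR, rose (0.44 ± 0.093 in TC and 0.64 ± 0.080 in B6), while Lpcat3 (-0.69 ± 0.056 in TC and -0.83 ± 0.047 in B6) and Mylip (-0.55 ± 0.082 in TC and -0.61 ± 0.070 in B6), targets of LXR, fell.

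Between strains the differences were smaller. In Tfh cells 12 members were lower in TC than in B6, 3 were higher and 15 were not called, where 50.7% of all genes tested were called (25.9% lower and 24.7% higher). No member was called with a log2 fold change of 1 or more in size, which 6.73% of all genes reached. The median of the 30 members was -0.17 and that of all genes -0.016. Of the 18 mevalonate and sterol enzymes 9 were lower and 3 were higher, and the 18 transcripts summed to 294 ± 6.21 CPM in TC Tfh (SD, n = 3) and 334 ± 12.2 CPM in B6 Tfh (SD, n = 4). None of the 5 tested fatty acid genes was called in Tfh cells by edgeR, DESeq2 or limma-voom, and none had an unadjusted p below 0.05.

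The lower enzymes in TC Tfh cells lay on both sides of squalene. Sqle averaged 3.98 ± 0.624 CPM in TC Tfh (SD, n = 3) and 6.68 ± 1.81 CPM in B6 Tfh (SD, n = 4), with -0.76 ± 0.20, adjusted p = 0.00523. Cyp51 averaged 16.6 ± 1.07 CPM in TC Tfh (SD, n = 3) and 24.8 ± 1.36 CPM in B6 Tfh (SD, n = 4), with -0.59 ± 0.087, adjusted p = 4.21e-05. Ebp averaged 29.7 ± 0.895 CPM in TC Tfh (SD, n = 3) and 43.5 ± 5.04 CPM in B6 Tfh (SD, n = 4), with -0.55 ± 0.088, adjusted p = 7.41e-05. Libraries of the strains did not overlap for 11 lower and 3 higher members, where 50.2% of all genes did not overlap (25.9% lower and 24.3% higher). Smaller differences were called for Mvd (-0.51 ± 0.17, adjusted p = 0.0180), Msmo1 (-0.36 ± 0.073, adjusted p = 6.92e-04), Sc5d (-0.31 ± 0.064, adjusted p = 8.10e-04), Acat2 (-0.30 ± 0.082, adjusted p = 0.00626), Fdft1 (-0.24 ± 0.079, adjusted p = 0.0164) and Hmgcs1 (-0.22 ± 0.081, adjusted p = 0.0332). Outside the enzymes, Insig1 (-0.22 ± 0.072, adjusted p = 0.0150), Insig2 (-0.21 ± 0.063, adjusted p = 0.00919) and Abcg1 (-0.19 ± 0.073, adjusted p = 0.0409) were lower.

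A set of 3 sterol enzymes was higher in TC Tfh cells. Hsd17b7 measured 11.1, 12.2 and 11.8 CPM in TC Tfh and 7.24, 6.74, 4.81 and 4.89 CPM in B6 Tfh. No library overlapped, and the difference of 1.97-fold was the largest of the members in these cells (0.98 ± 0.15, adjusted p = 5.54e-05). Lss measured 23.00, 23.04 and 23.2 CPM in TC Tfh and 18.9, 19.1, 17.6 and 16.9 CPM in B6 Tfh (0.35 ± 0.083, adjusted p = 0.00217). Tm7sf2 averaged 15.8 ± 1.76 CPM in TC Tfh (SD, n = 3) and 12.4 ± 0.894 CPM in B6 Tfh (SD, n = 4), with 0.35 ± 0.091, adjusted p = 0.00429. All 3 were also higher in TC Tn cells. Vps51, which overlaps Tm7sf2 on the same strand, was higher in TC too. Its mean raw counts were 916 in TC Tfh and 841.5 in B6 Tfh, and 1039 in TC Tn and 800.5 in B6 Tn. The part of Vps51 in the strain differences of Tm7sf2 was not tested.

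Single libraries decided several of the smaller calls in Tfh cells. With 1 library left out, adjusted p rose to 0.167 for Hmgcs1 (lost without TC Tfh 1 or 4 or B6 Tfh 1 or 2), 0.114 for Mvd (TC Tfh 4 or B6 Tfh 1 or 2), 0.156 for Fdft1 (TC Tfh 2 or B6 Tfh 4), 0.132 for Insig1 (TC Tfh 4 or B6 Tfh 2) and 0.0999 for Insig2 (TC Tfh 2). Abcg1 lost its call without any of TC Tfh 2 or 4, TC Tn 2 or B6 Tfh 1, 3 or 4 (adjusted p up to 0.216). Sqle, Cyp51, Ebp, Msmo1, Sc5d, Acat2, Lss, Hsd17b7 and Tm7sf2 kept their calls whichever library was left out. Marker sums of B cells (71.8 to 99.6 CPM in TC Tfh and 106 to 117 in B6 Tfh), of plasma cells (2.63 to 4.28 CPM in TC Tfh and 5.82 to 17.3 in B6 Tfh), of T cells in general (3262 to 3421 CPM in TC Tfh and 3741 to 4235 in B6 Tfh) and of macrophages (3.76 to 7.08 CPM in TC Tfh and 8.47 to 15.5 in B6 Tfh) did not overlap between the strains, and their part in these results was not tested.

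**Figure D3:**
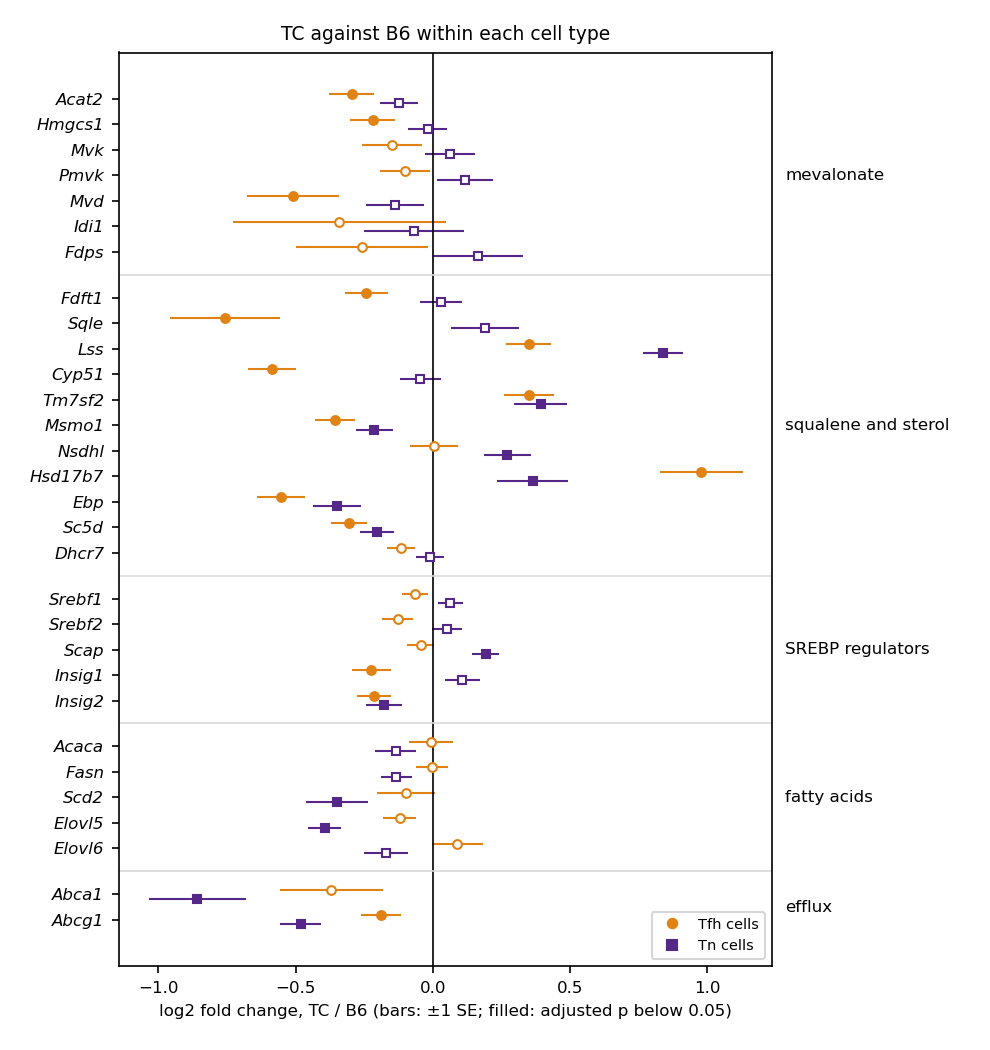
Log2 fold change of TC over B6 for the 30 tested members, by role, in Tfh cells (circles) and Tn cells (squares), with bars of 1 SE and filled symbols for an adjusted p below 0.05. Sqle and Cyp51 lie left of 0 in Tfh (-0.76 and -0.59) and were not called in Tn (0.19 and -0.046), and Lss and Hsd17b7 lie right of 0 in both.

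In Tn cells 5 members were higher in TC than in B6, 8 were lower and 17 were not called, where 51.9% of all genes tested were called (25.8% higher and 26.1% lower). Libraries of the strains did not overlap for 5 higher and 9 lower members, where 55.5% of all genes did not overlap (27.4% higher and 28.1% lower). No member was called with a log2 fold change of 1 or more in size, which 7.68% of all genes reached. None of the 7 mevalonate enzymes was called by edgeR, DESeq2 or limma-voom, and the lowest unadjusted p was 0.0956, for Acat2. The 18 mevalonate and sterol enzymes summed to 528 ± 37.3 CPM in TC Tn (SD, n = 3) and 510.1 ± 14.3 CPM in B6 Tn (SD, n = 4). Lss measured 54.7, 66.8 and 56.2 CPM in TC Tn and 31.8, 32.7, 31.1 and 36.7 CPM in B6 Tn. All TC libraries lay above all B6 libraries, 1.79-fold on the fitted scale (0.84 ± 0.073, adjusted p = 1.16e-07). Hsd17b7 (0.36 ± 0.13, adjusted p = 0.0249), Tm7sf2 (0.39 ± 0.10, adjusted p = 0.00246), Nsdhl (0.27 ± 0.086, adjusted p = 0.0141) and Scap (0.19 ± 0.049, adjusted p = 0.00333) were higher as well. These calls were lost for Nsdhl without TC Tn 2 or 4 (adjusted p up to 0.0801) and for Hsd17b7 without TC Tn 2 or 4 or B6 Tn 3 (up to 0.107), so the count of higher members was 3 without TC Tn 2 and 3 without TC Tn 4. Several marker sums also did not overlap between the strains in Tn cells. They were those of naive cells (2901 to 3094 CPM in TC Tn and 3841 to 4344 in B6 Tn), of T cells in general (2492 to 2616 CPM in TC Tn and 2861 to 3117 in B6 Tn), of regulatory T cells (57.97 to 72.6 CPM in TC Tn and 75.5 to 90.2 in B6 Tn) and of dendritic cells (0.191 to 0.501 CPM in TC Tn and 0.730 to 1.24 in B6 Tn). Their part in the differences of the members in Tn cells was not tested.

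The 8 members lower in TC Tn cells were both exporters, 2 fatty acid genes, 3 sterol enzymes and Insig2. Abca1 averaged 27.5 ± 0.374 CPM in TC Tn (SD, n = 3) and 49.9 ± 7.996 CPM in B6 Tn (SD, n = 4), the largest fall of the members here (-0.86 ± 0.18, adjusted p = 0.00120). Abcg1 averaged 91.6 ± 1.73 CPM in TC Tn (SD, n = 3) and 128 ± 13.9 CPM in B6 Tn (SD, n = 4), with -0.48 ± 0.075, adjusted p = 4.25e-05. Elovl5 (-0.39 ± 0.061, adjusted p = 4.36e-05), Scd2 (-0.35 ± 0.11, adjusted p = 0.0177), Ebp (-0.35 ± 0.088, adjusted p = 0.00292), Msmo1 (-0.21 ± 0.066, adjusted p = 0.0124), Sc5d (-0.21 ± 0.062, adjusted p = 0.0102) and Insig2 (-0.18 ± 0.067, adjusted p = 0.0333) were lower too. Leaving out TC Tn 1 ended the calls of Scd2 (adjusted p = 0.0742), Msmo1 (0.0834) and Insig2, and the count of lower members was then 5. Insig2 also lost its call without TC Tn 2 or B6 Tn 1, 2 or 3 (adjusted p up to 0.146). By design TC mice differ from B6 mice by the congenic intervals, which lie on chromosomes 1, 4 and 7. Members on these chromosomes were Hsd17b7 (chr1:169949535-169969241) and Insig2 (chr1:121304353-121332589) on chromosome 1, Abca1 (chr4:53030787-53159895) on chromosome 4 and Dhcr7 (chr7:143823145-143848410) on chromosome 7, in mm10. Lss lies on chromosome 10 (chr10:76531588-76557138). Whether the first 4 genes fall inside the intervals was not tested, and the bounds were not used here.

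The neighbouring lists were compared between strains as well, first in Tfh cells, where 50.7% of all genes were called. Of the isoprenoid branch 1 of 11 genes was higher in TC and 4 were lower, among them Fnta, the alpha subunit shared by prenyltransferases (-0.39 ± 0.056, adjusted p = 3.09e-05), and Dolk (-0.57 ± 0.13, adjusted p = 0.00146), while Coq2, of ubiquinone synthesis, was higher (0.21 ± 0.058, adjusted p = 0.00684). Of SREBP processing and degradation genes 1 of 9 was higher, Rnf145, an INSIG-associated ubiquitin ligase (0.28 ± 0.052, adjusted p = 2.78e-04), and 3 were lower, among them Rnf139, another ubiquitin ligase (-0.27 ± 0.050, adjusted p = 2.80e-04). Of the other elongation enzymes 0 of 7 were higher and 3 were lower, among them Elovl1 (-0.45 ± 0.053, adjusted p = 4.25e-06) and Hacd3 (-0.38 ± 0.057, adjusted p = 4.26e-05). Of acetyl-CoA and NADPH supply genes 0 of 5 were higher and 1 was lower, Slc25a1 (-0.50 ± 0.087, adjusted p = 1.67e-04). Of the LXR list 1 of 6 was higher, the receptor Nr1h2 (0.21 ± 0.055, adjusted p = 0.00495), and 1 was lower, Lpcat3 (-0.23 ± 0.053, adjusted p = 0.00163). Of the storage and movement list 1 of 10 was higher, the lipoprotein receptor Lrp8 (0.67 ± 0.15, adjusted p = 0.00131), and 3 were lower, among them Soat2 (-1.11 ± 0.18, adjusted p = 7.40e-05) and Npc2 (-0.37 ± 0.079, adjusted p = 0.00100). In Tn cells, where 51.9% of all genes were called, 1 gene of the isoprenoid branch was higher in TC and 4 were lower, and 0 supply genes were higher and 3 were lower. Of the other elongation enzymes 2 were higher and 4 were lower there, and of SREBP processing genes 0 were higher and 4 were lower. Of the LXR list 3 were higher and 1 was lower, and of the storage and movement list 2 were higher and 3 were lower.

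Whether the Tfh over Tn difference itself differed between strains was tested as the interaction of strain and cell type, where a negative value means a lower Tfh to Tn ratio in TC. It was called for 3 members, all negative and all consecutive enzymes from squalene onward, where 2.1% of all genes tested were called (1.24% negative and 0.864% positive). Cyp51 had an interaction of -0.54 ± 0.11, adjusted p = 0.0201, Lss -0.49 ± 0.11, adjusted p = 0.0277 and Sqle -0.95 ± 0.24, adjusted p = 0.0483. In single mice the log2 ratio of Tfh to Tn was -3.32 to -2.96 in TC and -2.55 to -1.95 in B6 for Sqle, -1.53 to -1.25 in TC and -1.11 to -0.75 in B6 for Lss, and -1.65 to -1.47 in TC and -1.18 to -0.96 in B6 for Cyp51. For each of the 3 genes all 3 TC mice had a lower ratio than all 4 B6 mice. The same held for 11 of the 30 members in all, among them the uncalled Mvk, Fdft1, Msmo1, Nsdhl, Dhcr7, Srebf2, Scap and Insig1, and for 11.1% of all genes tested. In 5 members, Hsd17b7, Scd2, Elovl5, Abca1 and Abcg1, all TC mice had a higher ratio than all B6 mice, as in 8.53% of all genes, so that 16 members did not overlap, where 19.6% of all genes did not. The strain difference of Sqle and Cyp51 was larger in Tfh cells, whereas that of Lss was larger in Tn cells, where TC was higher.

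No member was called with an interaction of 1 or more in size, which 0.685% of all genes reached. Each of the 3 calls was lost when certain single libraries were left out. Cyp51 lost its call without TC Tfh 1, TC Tfh 4 or TC Tn 2 (adjusted p up to 0.0843). Lss kept its call in 5 of 14 fits with 1 library left out and lost it in 9 (TC Tfh 1, 2 or 4, TC Tn 2, B6 Tfh 1 or 2, or B6 Tn 1, 2 or 3, adjusted p up to 0.0881). None of the 3 was called without TC Tfh 1, TC Tfh 4 or TC Tn 2. Sqle kept its call in 2 fits, without B6 Tfh 1 or B6 Tfh 3, and lost it in the other 12 (up to 0.169). With the mouse as a block, which pairs the Tfh and Tn libraries taken as 1 animal, 8 members were called. Over all genes the block called 712 in the interaction, against 282 without it. Sqle (-0.93 ± 0.17, adjusted p = 0.00726), Lss (-0.49 ± 0.10, adjusted p = 0.0162) and Cyp51 (-0.54 ± 0.086, adjusted p = 0.00259) were again lower, joined by Scap (-0.24 ± 0.057, adjusted p = 0.0292). Hsd17b7 (0.62 ± 0.14, adjusted p = 0.0230), Elovl5 (0.27 ± 0.055, adjusted p = 0.0112), Abca1 (0.50 ± 0.13, adjusted p = 0.0389) and Abcg1 (0.29 ± 0.070, adjusted p = 0.0293) were called higher with the block. Without it these 4 had adjusted p-values of 0.138, 0.132, 0.435 and 0.186 by edgeR.

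The sign of the interaction was mostly shared within a role. It was negative for 17 of 18 mevalonate and sterol enzymes, the exception being Hsd17b7 at 0.61, and for all 5 control genes. It was positive for all 5 tested fatty acid genes and both exporters. The median was -0.22 for the 18 enzymes, 0.25 for the 5 fatty acid genes and -0.014 over all genes. These signs are a description, since most of the single values were not called, and the values of Tm7sf2 and Insig2 changed sign in 2 of the 14 fits with 1 library left out. Elovl5 had log2 Tfh to Tn ratios of -0.43 to -0.39 in TC mice and -0.72 to -0.65 in B6 mice, and Abcg1 had 0.28 to 0.46 in TC mice and -0.052 to 0.20 in B6 mice. Hsd17b7 had -0.62 to -0.48 in TC mice and -1.56 to -0.98 in B6 mice. Among the neighbouring lists 1 of 48 tested genes was called in the interaction, a share near the 2.1% called over all genes. It was Fads1, a fatty acid desaturase singled out after its value was seen (-0.43 ± 0.10, adjusted p = 0.0424). Fads1 was called lower in Tfh than Tn cells of TC (-0.26 ± 0.078, adjusted p = 0.00651) and higher in B6 (0.16 ± 0.069, adjusted p = 0.0446).

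**Figure D4:**
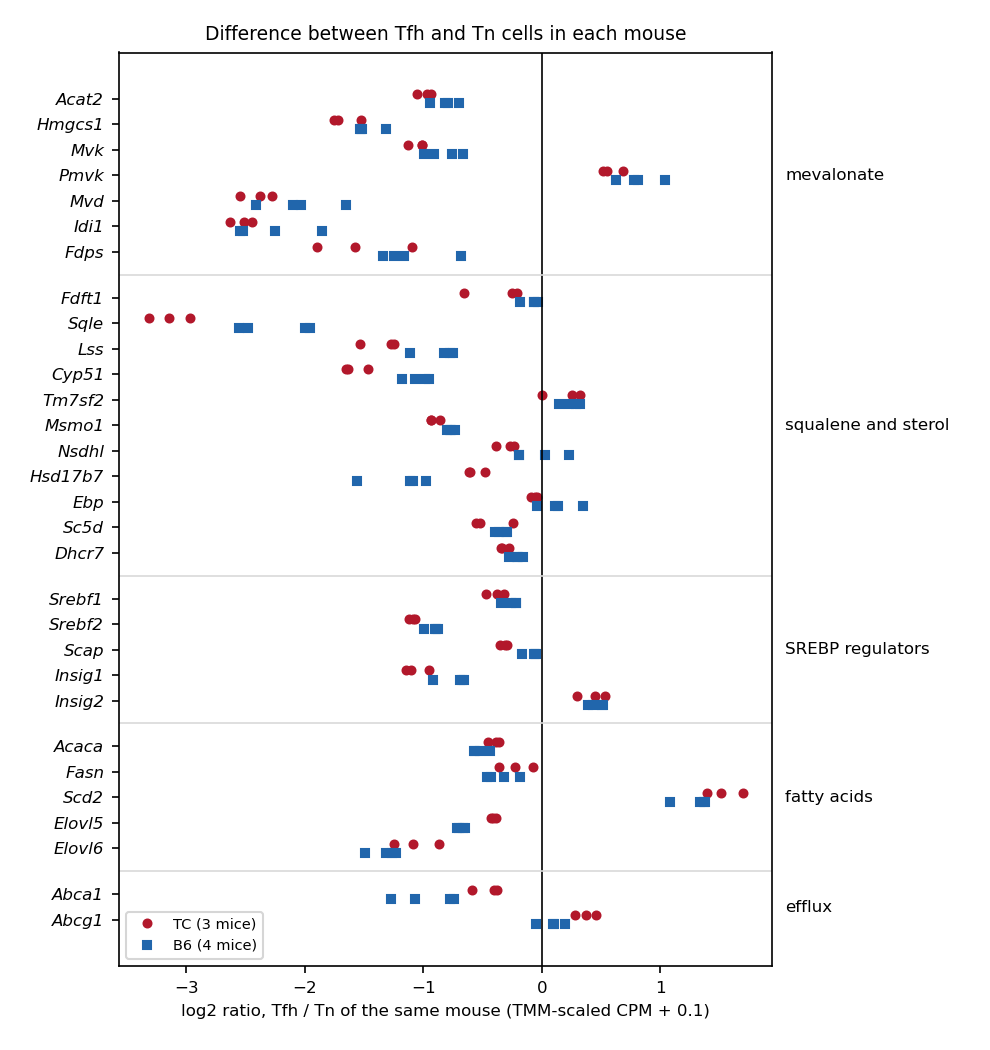
Log2 ratio of Tfh to Tn level within each mouse for the 30 tested members, by role, with 0.1 CPM added to each TMM-scaled level; circles are the 3 TC mice and squares the 4 B6 mice. For Sqle the TC mice lie at -3.32 to -2.96 and the B6 mice at -2.55 to -1.95, and for Elovl5 the order is reversed, at -0.43 to -0.39 in TC and -0.72 to -0.65 in B6.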

How the data were processed

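RNA was extracted from the sorted cells of each mouse and made into stranded libraries, per the labels' protocols. The authors deposited whole-number counts per gene symbol for the 14 libraries, aligned with STAR 2.7 to mm10 according to the submitters' processing notes, which also name DESeq2. The counting tool, its strand setting and its annotation are not given in those notes. The labels name the naive libraries as Tfh in 1 field, and their extraction protocol speaks of WT and KO rather than of B6 and TC. The titles and the strain and cell type fields were followed.

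The 31 members and all other lists were chosen with earlier results of these data known. In R 4.3.3, edgeR 4.0.16 fitted 4 group means (TMM, filterByExpr with a count minimum of 10, robust quasi-likelihood) to 13427 genes in 5 comparisons, with Benjamini-Hochberg adjustment over all of them. Each member with a called log2 fold change of at least 1 in size or a called interaction has its values per library printed. From each neighbouring list up to 2 genes a direction with the smallest adjusted p were named, in Tfh against Tn of B6 and in TC against B6 Tfh, and some genes that this rule picks are not reported here. The script recovered most of the largest planted changes in simulated counts. Those counts had the same spread for every gene, few changed genes and no differences between mice. Alternatives used DESeq2 1.42.0 and limma 3.58.1. Within-mouse log2 ratios added 0.1 CPM.

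Tfh and Tn libraries with 1 number were taken as 1 mouse, since RNA came from each individual mouse and the labels number both cell types alike. Deviations from the group means correlated by 0.209, 0.207 and 0.257 in TC mice 1, 2 and 4, and by 0.299, 0.114, 0.0395 and 0.203 in B6 mice 1 to 4. Each Tfh library correlated best with the Tn library of its own number, except in B6 mouse 3, where a Tn library of another B6 mouse did. The pairing of B6 mouse 3 is thus not borne out by this check. No pair of libraries of 1 group agreed within sampling noise.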

Additional observations from a re-analysis of the deposited data

Results flagged for a closer look

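The Tfh over Tn difference was called different between strains for Sqle (-0.95 on the log2 scale, TC minus B6), Cyp51 (-0.54) and Lss (-0.49) in the interaction test by edgeR. The adjusted p was 0.0483 for Sqle, 0.0201 for Cyp51 and 0.0277 for Lss. In the 14 fits with 1 library left out, the call was lost in 12 for Sqle, 9 for Lss and 3 for Cyp51.

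Dixon's test screened 62 sets of 1 member in 1 B6 group, and the TC groups of 3 libraries were left out. Of these sets 5 held a library far from the others, and chance gives about 1 in 20 such sets. Fdft1 (23.2 CPM) and Nsdhl (20.4 CPM) each had 1 high library among the 4 of B6 Tfh. Hsd17b7 (10.5 CPM, mouse 3) and Abca1 (37.9 CPM) each had 1 low library among the 4 of B6 Tn. Scd1 had 0.0561 CPM in 1 B6 Tn library, which is a single count, and none in the other 3.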

How the results depend on the processing

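Among called members, 25 of 27 in TC and 24 of 25 in B6 kept their Tfh against Tn call under every setting other than a fold threshold or a left-out library, as did 12 of 15 between strains in Tfh, 11 of 13 in Tn and 2 of 3 in the interaction. When a call also needed a fitted fold above 1.5, the calls were 2 higher and 13 lower (15) in TC and 2 higher and 16 lower (18) in B6. Between strains they were 1 higher and 2 lower (3) in Tfh and 1 higher and 1 lower (2) in Tn, with 1 lower in the interaction. This is a cut on the fitted fold and not a test against a fold of 1.5. Over all genes that cut left 5048 calls in TC, 5190 in B6, 1917 and 2210 between strains in Tfh and in Tn, and 171 in the interaction. With the mouse as a replicate block the interaction called 8 members, 4 of them higher, and 712 genes, against 282 without the block, and the block otherwise added only Ebp in B6 and Abca1 in TC, described above, to the calls of the members and removed none. With limma-voom and the mouse as a random block it called 7 members (2 higher, 5 lower) and 580 genes, and with DESeq2 533 genes. With 1 library left out, the interaction called 0 to 3 members, all lower, and 137 to 299 genes. Between strains in Tn 3 to 5 members were then higher and 5 to 9 lower, and 6031 to 7120 of all genes were called.

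Calls lost between strains in Tfh were Hmgcs1 (limma-voom, adjusted p = 0.0540), Fdft1 (only the groups compared, 0.0547) and Abcg1 (count minimum of 50, 0.0578, and library totals, 0.0531). In Tn they were Insig2 (0.0540 to 0.0956 in 4 settings) and Scd2 (no filter, 0.0573), and in the interaction Sqle (no filter, 0.0553). TMM without receptor genes here means scaling without T cell receptor, immunoglobulin, mitochondrial and ribosomal genes. Calls gained in Tfh were Srebf2, lower in TC (no filter, 0.0291, TMM without receptor genes, 0.0277, and DESeq2, 0.0472), and Dhcr7, lower (TMM without receptor genes, 0.0299). In Tn they were Sqle, higher (only the groups compared, 0.0458), and Fasn, lower (DESeq2, 0.0403). Between Tfh and Tn of TC they were Tm7sf2, higher (limma-voom, 0.0422, and library totals, 0.00999), and Abca1, lower in 5 settings (0.000723 to 0.0445), and in B6 library totals added Ebp and Abcg1, higher (0.00347 and 0.0103). In the interaction Scap, lower, was gained in 4 settings (0.0292 to 0.0476), and limma-voom added Insig1, lower (0.0404), and Hsd17b7 and Elovl5, higher (0.0464 and 0.0383). The cause was not tested.

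No called member changed sign. Uncalled log2 values that did were, with library totals, 0.047 for Ebp in TC Tfh over Tn, and in B6 0.044 for Fdft1, 0.10 for Nsdhl and 0.051 for Scap. Between strains in Tfh they were -0.028 (no filter) and -0.021 (TMM without receptor genes) for Nsdhl, 0.0093 (minimum of 50), 0.0078 (only the groups compared) and 0.00066 (library totals) for Acaca, and 0.013, 0.011 and 0.0048 in the same settings for Fasn. In Tn they were 0.0070 (minimum of 50) and 0.013 (totals) for Hmgcs1, and 0.00075 (no filter), 0.017 (minimum of 50), 0.0069 (only the groups compared) and 0.023 (totals) for Dhcr7. With 1 library left out, values ran from -0.073 to 0.012 for Nsdhl in B6. Between strains in Tfh the ranges were -0.019 to 0.080 for Nsdhl, -0.049 to 0.0029 for Scap, -0.019 to 0.062 for Acaca and -0.022 to 0.060 for Fasn. In Tn they were -0.12 to 0.051 for Hmgcs1, -0.0051 to 0.12 for Mvk, -0.30 to 0.054 for Idi1, -0.012 to 0.056 for Fdft1, -0.13 to 0.024 for Cyp51 and -0.040 to 0.022 for Dhcr7. In the interaction they were -0.080 to 0.063 for Tm7sf2 and -0.077 to 0.044 for Insig2. The legacy quasi-likelihood test and library totals were chosen after the data were seen.

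Each group has 3 or 4 libraries, and genes of a few CPM, such as Idi1 and Fdps, rest on few counts per library.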
